A study of Mus musculus with 15 samples.

Results

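The AP-1 transcription factor genes described here are Fos, Fosb, Fosl2, Jun, Junb, Jund, Atf3 and Maff. All probe sets that the annotation of the Affymetrix mouse genome array gives to 1 of these 8 symbols were taken, which made 11 of 45037 probe sets. Expression was measured in total RNA of mouse forebrain on 15 arrays, each probe set being a group of short oligonucleotide probes summarised to 1 intensity. The tested samples were 5 that received erythropoietin before hypoxic ischemia (EPO-HI 11 to 15, 5 U per g into the peritoneum) and 5 that received vehicle before the same injury (VEH-HI 6 to 10). They were set against 5 that received vehicle before sham surgery (VEH-Sham 1 to 5). Every injection preceded the procedure by 1 h, and no group received erythropoietin with sham surgery. The sources used here give no strain, age, sex, kind of hypoxic ischemia or time from injury to sampling. Nor do the labels call the samples separate animals, so every p-value refers to the spread among samples, part of which may be technical.

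AP-1 is a dimer of basic leucine zipper proteins that binds a short palindromic DNA element. Fos-family proteins (Fos, Fosb, Fosl2) do not form stable dimers with themselves and pair with Jun-family proteins (Jun, Junb, Jund), which can also pair with each other. In brain, Fos and Junb are immediate early genes, transcribed within minutes of strong neuronal activity or injury, while Jund is made at a steady level in many cells. Atf3 is a stress-induced relative that pairs with Jun proteins, and Maff is a small Maf protein that lacks an activation domain and works through its partners.

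The 15 arrays fell into groups that the labels do not record. Median intensity was 55.3 to 57.9 on VEH-Sham 1 to 4 (set A, 4 arrays) and 39.2 to 44.4 on the remaining 11, which are VEH-Sham 5 and all EPO-HI and VEH-HI arrays (set B). AP-1 differences from VEH-Sham are therefore given with the difference within set B, which rests on VEH-Sham 5 alone. The forebrain transcription factor genes Emx1, Emx2, Tbr1, Neurod6, Lhx2 and Dlx1 were each among the tested probe sets, and 0 of the 6 rose or fell in VEH-HI against VEH-Sham. Over all tested genes 11.9% rose and 11.5% fell in that comparison. In EPO-HI against VEH-Sham Neurod6 fell (-0.51, SE 0.15, limma adjusted p = 0.0221, -0.11 within set B) and the other 5 did not pass. There 8.86% of all tested genes rose and 9.46% fell. Signals are linear intensities as deposited, and differences are on the log2(intensity + 16) scale, where a difference of 1 is a doubling of the summed value. On this scale a dim gene's change comes out too small. Tests covered the brightest 60% of probe sets by mean (27022). Of the 11 AP-1 probe sets 8 passed this filter, for 6 of the 8 genes. Fosb, Maff and 1 Jund probe set did not, and their tests come from the same model without the filter. The files hold no detection calls, and in bulk RNA fewer cells of a type and less RNA per cell cannot be told apart.

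Fos, the founding member of the family, had the widest range of signals. It read 1177, 523, 982, 266 and 153 in VEH-HI 6 to 10, against 136, 123, 111, 108 and 162 in VEH-Sham 1 to 5. VEH-HI 6 and 8 stood highest, while VEH-HI 10 lay inside the sham range and below VEH-Sham 5. Fos averaged 8.96 ± 1.19 in VEH-HI and 7.16 ± 0.21 in VEH-Sham on the log2 scale (SD, n = 5 each). Fos rose 3.49-fold (log2 difference 1.80, SE 0.43, limma adjusted p = 0.00677) and 1.48 within set B. Its highest VEH-HI sample was 7.67 times its lowest.

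**Figure D1:**
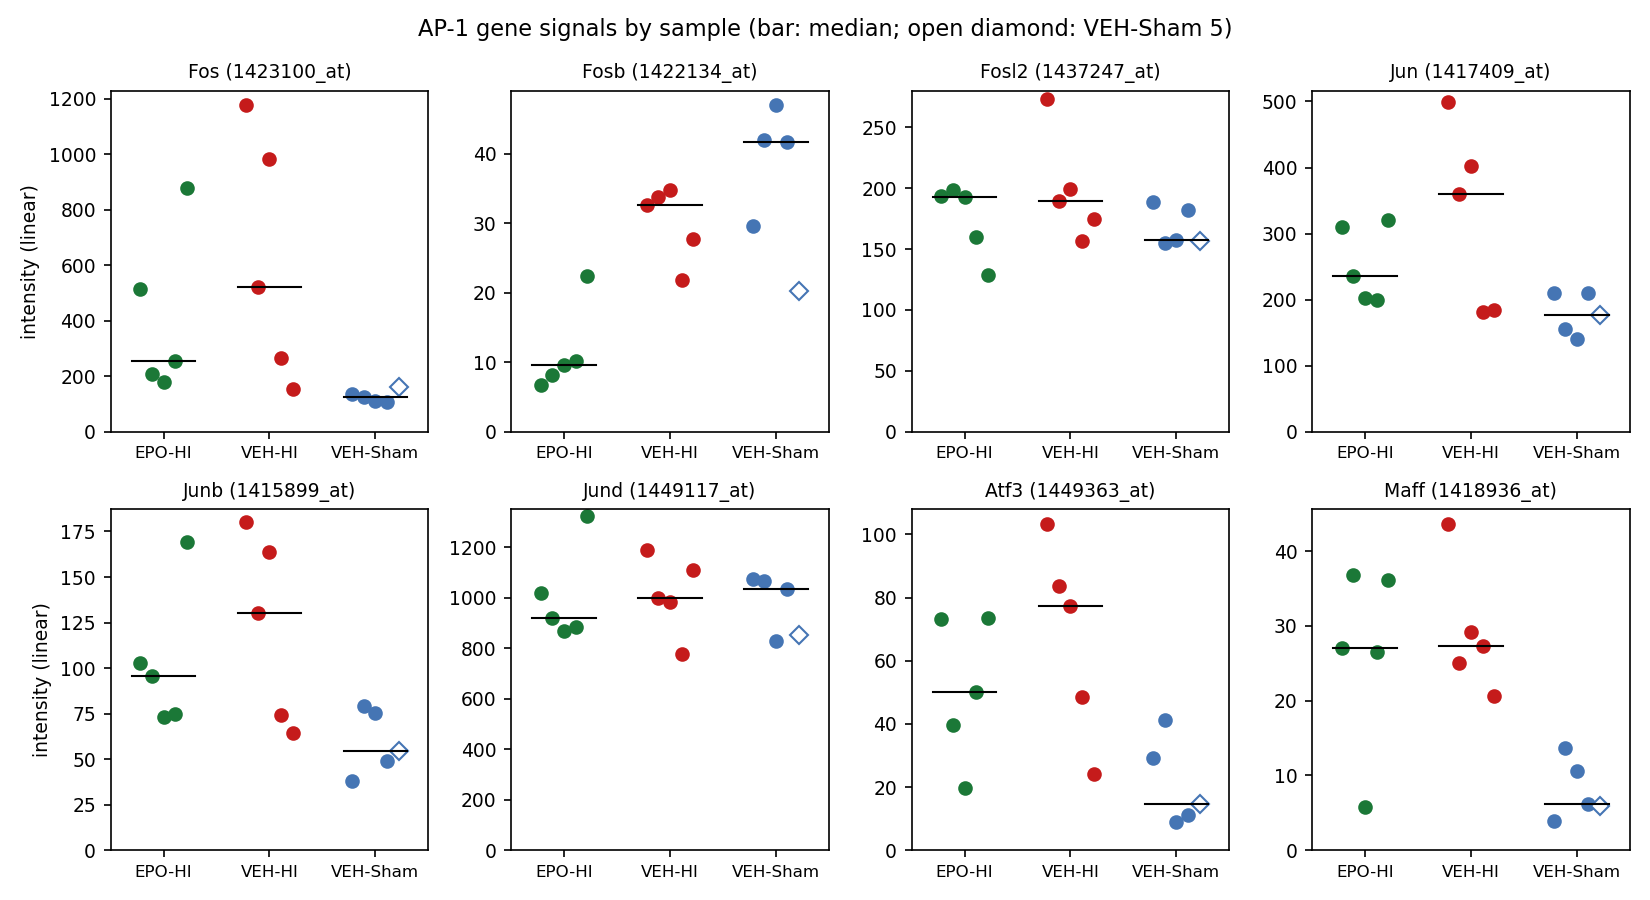
Signal of the brightest probe set of each AP-1 gene (linear intensity, axes from 0) in EPO-HI, VEH-HI and VEH-Sham, 1 point a sample, with the group median as a bar and VEH-Sham 5 as an open diamond. Fos read 153 to 1177 in VEH-HI and 108 to 162 in VEH-Sham, and Fosb was the member with 4 of 5 EPO-HI points below every VEH-HI point.

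The other members of the Fos family did not pass in this comparison. Fosb, a Fos paralog, read 32.6, 33.8, 34.8, 21.9 and 27.8 in VEH-HI 6 to 10, against 29.6, 41.9, 47.1, 41.7 and 20.2 in VEH-Sham 1 to 5. VEH-Sham 5 was the lowest of these 10 samples and the groups overlapped (log2 difference -0.15, SE 0.20, limma adjusted p = 0.628 without the filter). The sign turned within set B (0.34), with quantile normalization (0.10) and with equal array medians (0.09). Fosl2, which encodes Fra-2, read 273, 189, 199, 156 and 175 in VEH-HI at probe set 1437247_at, against 188, 155, 158, 182 and 156 in VEH-Sham (0.20, SE 0.14, limma adjusted p = 0.282, 0.29 within set B). VEH-HI 6 stood apart at the top and the rest lay close to the sham samples. Once arrays were set to equal medians this probe set passed (0.45, adjusted p = 0.0251), though it lay 0.27 above the median of all probe sets with or without that step. Its second probe set, 1422931_at, differed in sign (-0.21, SE 0.32, adjusted p = 0.671). There VEH-Sham 5 read 5.28, against 53.3 to 92.3 in the other sham samples and 28.2 to 62.5 in VEH-HI, so the difference within set B was 1.45. Without VEH-Sham 5 it was -0.62 (SE 0.20, limma adjusted p = 0.0222), so both its size and its sign turn on that sample.

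The Jun family was split. Jun, the partner that also pairs with itself, read 499, 360.1, 402, 181 and 184 in VEH-HI 6 to 10 at probe set 1417409_at, against 209, 155, 140.1, 209 and 177 in VEH-Sham 1 to 5. VEH-HI 6, 7 and 8 were above every sham sample and VEH-HI 9 and 10 were inside the sham range. Jun rose 1.65-fold (log2 difference 0.72, SE 0.22, limma adjusted p = 0.0245, also 0.72 within set B). Its second probe set, 1448694_at, carries the same accession and read 319.7, 216, 239, 169.5 and 165 in VEH-HI, against 228, 214, 217, 213 and 185 in VEH-Sham. VEH-HI 6 and 8 were above and VEH-HI 9 and 10 below all sham samples there, and the means nearly coincided (0.03, SE 0.15, adjusted p = 0.906). The rise of Jun therefore rests on 1 of its 2 probe sets.

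Junb, an immediate early gene, read 180.3, 130.0, 164, 74.3 and 64.5 in VEH-HI 6 to 10, against 38.2, 79.3, 75.1, 48.9 and 54.2 in VEH-Sham 1 to 5. As with Jun, VEH-HI 6, 7 and 8 were above all sham samples and VEH-HI 9 and 10 were not. Junb rose 1.77-fold (log2 difference 0.83, SE 0.24, limma adjusted p = 0.0205, 0.89 within set B). Jund, the steadily expressed family member, read 1189, 1001, 982, 776 and 1109.7 in VEH-HI, against 1073, 1067, 829, 1036 and 852 in VEH-Sham. Its groups overlapped (0.05, 95% interval -0.21 to 0.31, limma adjusted p = 0.791, 0.23 within set B), and its value fell below 0 with quantile normalization (-0.02). The dimmer Jund probe set 1440265_at read 5.91 to 43.7 over all samples and had an adjusted p = 0.996 without the filter.

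Atf3 and Maff were dim in sham tissue. Atf3 read 103, 83.5, 77.2, 48.5 and 24.1 in VEH-HI 6 to 10, against 29.1, 41.1, 8.87, 11.1 and 14.8 in VEH-Sham 1 to 5. All but VEH-HI 10 were above every sham sample. Atf3 rose 2.22-fold (log2 difference 1.15, SE 0.30, limma adjusted p = 0.0117, 1.34 within set B). Its sham signals were close to the added 16, so the size of its fold depends on this scale. Over the settings run the difference ranged from 0.61 to 1.70. Maff read 43.6, 25.1, 29.2, 27.3 and 20.6 in VEH-HI, against 3.92, 13.7, 10.6, 6.12 and 5.91 in VEH-Sham, with no overlap between the groups. Of all 45037 probe sets 2.52% lay above VEH-Sham in this way. Without the filter, where 5.64% of probe sets rose and 10.1% fell, Maff rose 1.87-fold (log2 difference 0.90, SE 0.23, limma adjusted p = 0.0143, 1.02 within set B). Its lowest sham signals lay near the bottom of the array's range (from the 6.23 percentile of all probe sets), so its fold on this scale depends on the added 16.

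Of the 6 AP-1 genes tested by their brightest probe set, 4 rose in VEH-HI (Fos, Jun, Junb and Atf3) and 0 fell. Over all 13168 tested genes 11.9% rose and 11.5% fell, and 22.8% of tested probe sets changed in either direction. The median difference was 0.77 for the 6 AP-1 genes and -0.02 for all genes, and within set B 0.80 and 0.00. The members were chosen with earlier results of these data known, so these counts and medians describe the family and do not test it. None of the 4 calls held with the array set as a block (limma adjusted p = 0.764 for Fos, 0.786 for Jun, 0.735 for Junb and 0.599 for Atf3). In that fit 0.0111% of all probe sets passed, and 0.0259% passed within set B. Each of these fits compares VEH-HI with VEH-Sham 5 alone, and why so few probe sets passed was not tested. Fos and Atf3 passed without any 1 sample, although Atf3 was dropped by the filter to the brightest 40%. Jun did not pass without VEH-HI 6, 7 or 8 or VEH-Sham 2 or 3 (adjusted p 0.0563 to 0.0736), and Junb not without VEH-HI 6 or 8 or VEH-Sham 1 or 4 (0.0505 to 0.0603). Of all called probe sets 43.1% were higher in VEH-HI as deposited, 53.3% after quantile normalization and 85.6% with equal array medians. The last moved the median of all probe sets from -0.06 to 0.18, relative to which Fos still differed by 1.86, Atf3 by 1.21, Junb by 0.89 and Jun by 0.78.

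**Figure D2:**
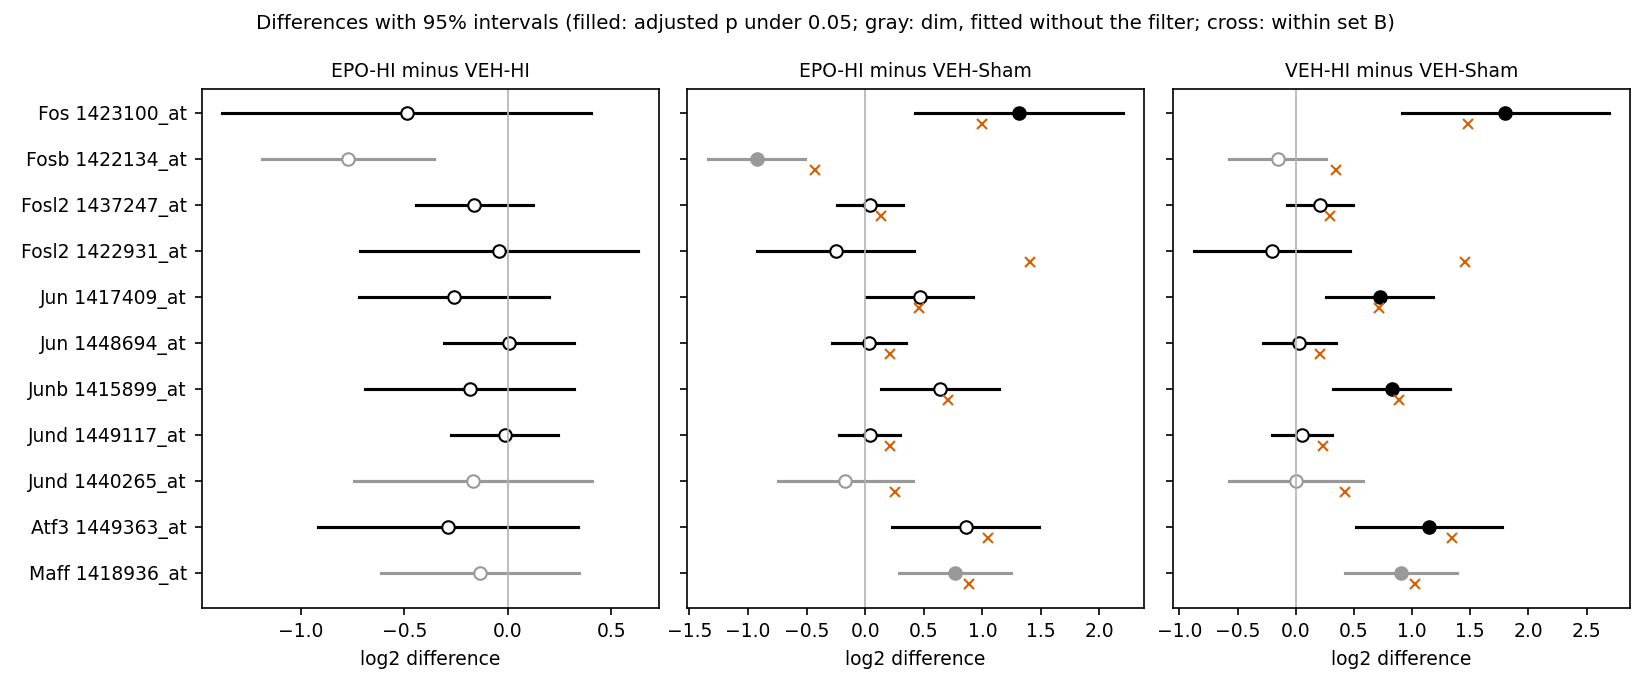
Log2 differences of all 11 AP-1 probe sets with 95% intervals for EPO-HI minus VEH-HI, EPO-HI minus VEH-Sham and VEH-HI minus VEH-Sham. Filled points had an adjusted p under 0.05, gray ones did not pass the filter on dim probe sets, and crosses give the difference from VEH-Sham 5. Fos, Jun, Junb, Atf3 and Maff lie above 0 in VEH-HI minus VEH-Sham, and none of the 11 is filled in EPO-HI minus VEH-HI.

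Erythropoietin and vehicle before the injury were compared next, on 10 arrays that all lie in set B. No AP-1 probe set passed, and 0.0% of all tested probe sets did (limma, 0 of 27022). At an unadjusted p under 0.05 there were 1066 (3.94%), and 1896 without the filter (4.21%). Fos read 513, 209.6, 179, 255 and 879 in EPO-HI 11 to 15, against the 153 to 1177 of VEH-HI. Both groups span low and high samples, and the difference of -0.49 has a 95% interval of -1.38 to 0.40. Both a large negative difference and a small positive one lie inside this interval. Jun read 309.9, 236, 202, 199 and 321 in EPO-HI, all within the VEH-HI range of 181 to 499 (-0.26, interval -0.72 to 0.20). Junb read 103, 95.5, 73.0, 75.0 and 169, also within the VEH-HI range (-0.18, interval -0.69 to 0.32). Atf3 read 73.1, 39.7, 19.6, 50.1 and 73.7, with EPO-HI 13 below every VEH-HI sample (-0.29, interval -0.92 to 0.34). By their brightest probe sets all 6 tested genes had a difference below 0, as had 51.9% of all genes, with a median of -0.22 against -0.01. Jun's second probe set was at 0.0047. The sign of Jund turned with equal array medians and without VEH-HI 6 or 10 or EPO-HI 12, 13 or 14. Fos, Jun, Junb and Atf3 had Pearson's r of 0.84 to 0.96 with each other over these 10 samples. The signs of these 4 genes are therefore not separate observations, so the 6 signs do not count as 6.

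Fosb had the smallest p of the family between EPO-HI and VEH-HI. It read 6.68, 8.12, 9.52, 10.2 and 22.3 in EPO-HI 11 to 15, against 32.6, 33.8, 34.8, 21.9 and 27.8 in VEH-HI 6 to 10. The groups touched only through EPO-HI 15 and VEH-HI 9. The difference was -0.77 (SE 0.20, 95% interval -1.19 to -0.36, unadjusted p = 0.00097), which 44 of the 45037 probe sets equalled or bettered. It failed the adjustment over all probe sets (limma adjusted p = 0.992), and Fosb signals lay between the 16.1 and 44.8 percentile of their arrays. All EPO-HI signals except that of EPO-HI 15 were below the added 16, so the size of the difference depends on this scale. Over the settings run it ranged from -1.43 to -0.32. Jund read 1018, 921, 870.1, 884 and 1324 in EPO-HI (-0.02, interval -0.27 to 0.24), and Maff read 27.1, 36.8, 5.74, 26.5 and 36.2 (-0.14, interval -0.61 to 0.34). Without EPO-HI 13 the Maff difference was 0.09. Fosl2 at 1437247_at read 194, 198, 193, 160.4 and 129 (-0.16, interval -0.44 to 0.12), and EPO-HI 15 was below all VEH-HI samples there.

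EPO-HI was also set against VEH-Sham, the same sham arrays as above. Of the 6 tested genes Fos alone passed (log2 difference 1.31, SE 0.43, 2.49-fold, limma adjusted p = 0.0387, 0.99 within set B), against 8.86% of all genes that rose and 9.46% that fell, and 18.3% of probe sets changed. All 5 EPO-HI samples (179 to 879) were above all sham samples (108 to 162), as in 3.16% of tested probe sets. The call did not hold without any 1 of VEH-Sham 1 to 4, EPO-HI 11 or EPO-HI 15 (adjusted p 0.0672 to 0.11), nor without the filter (0.0556). With the array set as a block 0.0148% of probe sets passed and within set B 0.0185%, Fos in neither. Atf3 stood at 0.86 (SE 0.30, adjusted p = 0.052), Junb at 0.64 (SE 0.24, 0.0678) and Jun at 0.46 (SE 0.22, 0.14). Atf3 and Junb passed after quantile normalization (adjusted p = 0.0171 and 0.0228), and those and Jun with equal array medians. Without the filter Maff rose by 0.77 (SE 0.23, adjusted p = 0.0344, 0.89 within set B) and Fosb fell by 0.93 (SE 0.20, adjusted p = 0.00881). The Maff call did not hold without any 1 of VEH-Sham 1, 3 or 4 or EPO-HI 11, 12, 14 or 15 (adjusted p 0.0573 to 0.0842), and neither call held with the array set as a block. The Fosb difference was -0.43 within set B, since VEH-Sham 5 had the lowest Fosb signal of the sham samples. In that unfiltered fit 3.99% of probe sets rose and 8.78% fell.

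Among the 10 hypoxic ischemia samples Fos, Jun, Junb and Atf3 were high and low in much the same samples. Each gene was taken by its brightest probe set here. The 5 highest samples were the same for all 4 genes, namely VEH-HI 6, 7 and 8 and EPO-HI 11 and 15. For Fos these 5 read at least 513 and the rest at most 266, and for Atf3 at least 73.1 and at most 50.1. Jun's second probe set, 1448694_at, differed, with EPO-HI 14 (270) among its 5 highest samples in place of EPO-HI 11 (202). Pearson's r between members was computed for 28 pairs over the 10 samples with a two-sided permutation test (100000 resamples), and p was adjusted over the 28 pairs. As the members were chosen with earlier results of these data known, these p-values refer to chosen pairs and do not test the family. Fos and Junb had r = 0.96 and Spearman's rho = 0.94 (adjusted permutation p = 0.00126 and 0.00406). Fos and Jun had r = 0.93 and rho = 0.83 (adjusted permutation p = 0.0035 and 0.0214), and Fos and Atf3 r = 0.91 and rho = 0.94 (0.0035 and 0.00406). Jun and Junb had r = 0.94, Jun and Atf3 0.85 and Junb and Atf3 0.84 (adjusted permutation p = 0.00126, 0.01 and 0.0129). With the 2 samples farthest from the median left out, these 6 pairs kept r = 0.80 to 0.92. Within VEH-HI alone r was 0.91 to 0.99 and within EPO-HI 0.70 to 0.91, with 5 samples each and no test.

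**Figure D3:**
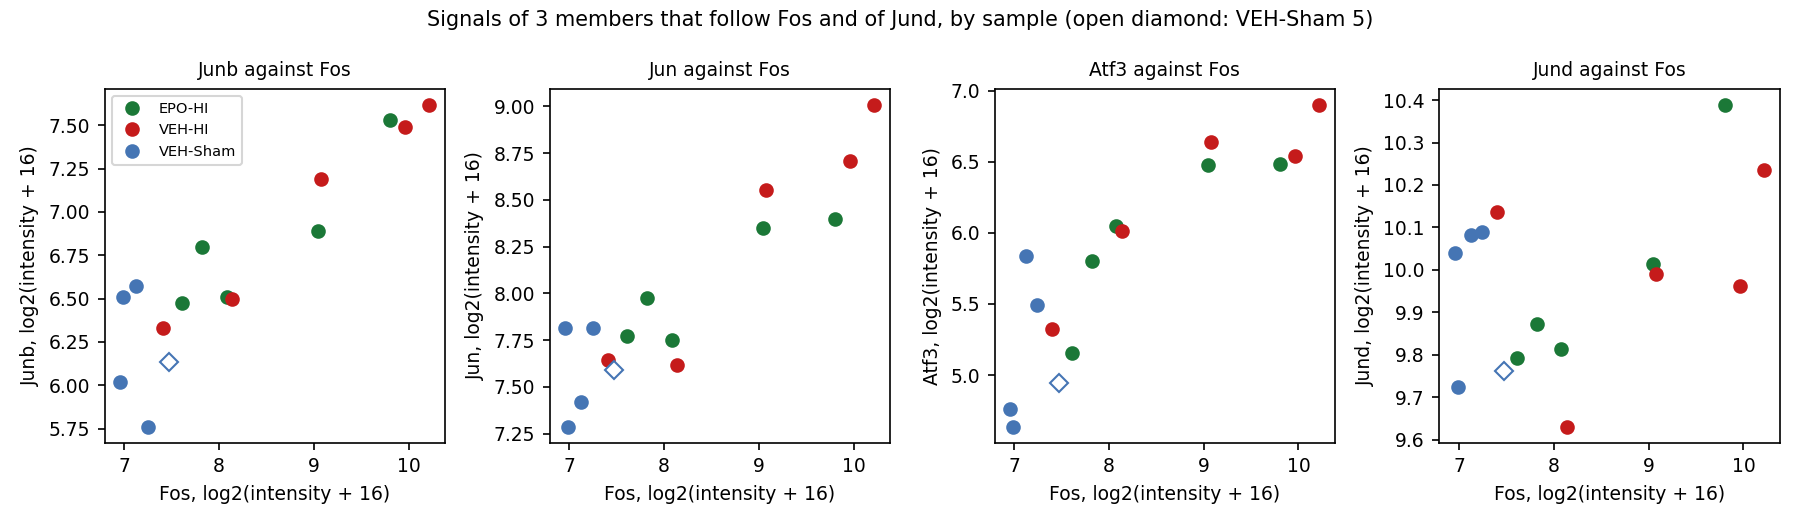
Log2 signals of Junb, Jun, Atf3 and Jund (vertical axes) against those of Fos (horizontal axes), 1 point a sample coloured by group, with VEH-Sham 5 as an open diamond. Over the 10 hypoxic ischemia samples r with Fos was 0.96 for Junb, 0.93 for Jun, 0.91 for Atf3 and 0.58 for Jund.

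The other members gave lower values with these genes. Atf3 and Maff passed by r (0.73, adjusted permutation p = 0.0381) but not by rho (0.52, 0.25), and r was 0.23 without VEH-HI 10 and EPO-HI 13. Jund had r = 0.58 with Fos and 0.64 with Junb, and Fosb r = 0.52 with Fos, none passing (adjusted permutation p = 0.181, 0.136 and 0.217). Fosl2 had r = 0.26 with Fos (0.568), at 0.79 within VEH-HI and -0.70 within EPO-HI. In all, 7 of 28 pairs passed by r and 6 by rho. The share of pairs of other genes that would pass over these samples was not computed, so the count is not particular to this family. With each group's mean removed 9 passed by r, among them Fosb with Junb (r = 0.72) and Fosb with Jund (0.74), each at an adjusted permutation p of 0.0469.

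**Figure D4:**
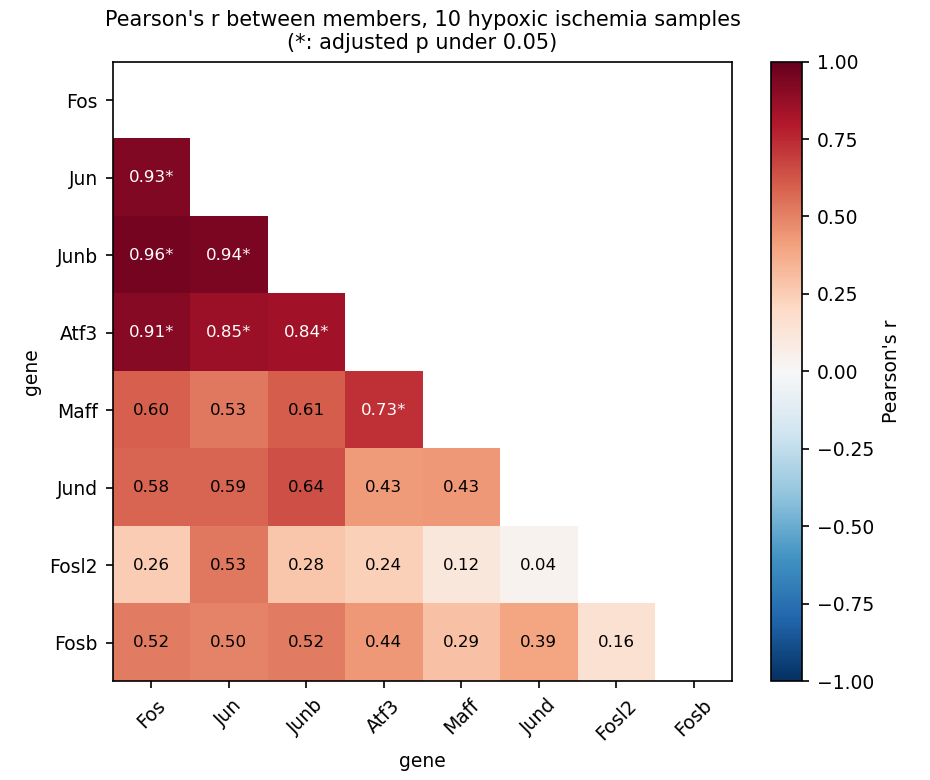
Pearson's r for the 28 pairs of AP-1 genes over the 10 hypoxic ischemia samples, each gene by its brightest probe set, with a star where the adjusted permutation p was under 0.05. The 6 pairs among Fos, Jun, Junb and Atf3 lie at 0.84 to 0.96.

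Among 12516 other named genes, those most like Fos over the same 10 samples were Nfkbia (r = 0.98), Nfkbiz (0.97), Gadd45b (0.97), Cyp1b1 (0.96) and Cd14 (0.96). Nfkbia encodes an inhibitor of NF-kB, Nfkbiz a nuclear NF-kB regulator, Gadd45b a stress-inducible growth arrest protein, Cyp1b1 a cytochrome P450 enzyme and Cd14 a lipopolysaccharide co-receptor. Junb ranked 6, Jun 25 and Atf3 48 in this order, while Jund ranked 1071 and Fosl2 3710. The genes most like Atf3 were Sox17 (r = 0.96), S100a6 (0.96), Gadd45g (0.96), Ccn1 (0.95) and Tnfrsf1a (0.95). Sox17 is an endothelial transcription factor gene, S100a6 encodes a calcium-binding protein, Ccn1 a matrix-associated signalling protein and Tnfrsf1a a receptor for tumour necrosis factor. These genes were picked for their r, which carries no test.

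Fos, Jun, Junb and Atf3 shared their 5 highest samples by their brightest probe sets. The 100 bases before their annotated starts are shown, with Maff for comparison (RefSeq, GRCm38.p6, 5′ to 3′ on the gene's strand). Whether these bases have a part in the shared samples was not tested. Capitals mark matches on either strand to TGANTCA (the AP-1 element), TGACGTCA (the cyclic AMP response element), its core TGACGT, TGACATCA, the CArG box or the MEF2 motif. Every TGACGTCA also holds the core.
Fos, chr12:85473790-85473889, plus strand: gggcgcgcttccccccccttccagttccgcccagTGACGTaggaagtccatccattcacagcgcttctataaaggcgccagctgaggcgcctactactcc
Jun, chr4:95052223-95052322, minus strand: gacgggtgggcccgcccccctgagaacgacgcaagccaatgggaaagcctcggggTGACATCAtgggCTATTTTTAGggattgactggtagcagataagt
Junb, chr8:84978749-84978848, minus strand: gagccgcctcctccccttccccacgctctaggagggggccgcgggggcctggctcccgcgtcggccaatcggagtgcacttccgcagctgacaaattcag
Atf3, chr1:191183334-191183433, minus strand: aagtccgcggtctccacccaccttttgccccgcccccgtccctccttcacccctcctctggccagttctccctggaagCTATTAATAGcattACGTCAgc
Maff, second of 3 starts, chr15:79347420-79347519, plus strand: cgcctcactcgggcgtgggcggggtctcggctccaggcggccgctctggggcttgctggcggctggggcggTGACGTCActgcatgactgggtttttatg

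Fos held the core 66 to 61 bases before its start, Atf3 held it on the other strand 8 to 3 bases before, and the second Maff start held the whole TGACGTCA 29 to 22 bases before. Of the other Maff starts the first held none of the motifs and the third held TGACATCA 45 to 38 bases before. Jun held TGACATCA at 45 to 38 and a MEF2 motif at 33 to 24 bases, and Atf3 a MEF2 motif at 22 to 13 bases. Junb held none of these letters in its 100 bases, nor did Fosb, Fosl2 or Jund, and TGANTCA and the CArG box were in none of the windows. Over 32851 promoter windows of this length 4.09% held the core, 1.15% TGACGTCA, 1.96% TGACATCA, 2.73% TGANTCA, 0.615% a CArG box and 0.992% a MEF2 motif. A match describes the letters and not a bound site.

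Other genes of the pathway were counted from lists, to be read against the 11.9% of all genes that rose and 11.5% that fell. The lists, textbook targets included, were chosen with earlier results of these data known, so their counts are descriptions and not tests. No tested gene of any pathway or marker list passed within set B, where 0.0259% of all probe sets did. Of 10 tested AP-1 relatives 1 rose and 2 fell in VEH-HI against VEH-Sham, and 7 did not pass (median -0.03, 0.12 within set B). Atf4, which encodes the effector of the integrated stress response, rose by 0.31 (SE 0.11, limma adjusted p = 0.0429) and stood at 0.12 within set B. Atf2, a Jun partner, fell (-0.42, SE 0.10, adjusted p = 0.00737, -0.26 within set B), as did Batf2 (-0.75, SE 0.22, 0.0207, -0.42 within set B). Mafk, a small Maf gene, was at -0.42 without passing (0.0778) and at 0.40 within set B. Of 14 kinases and phosphatases upstream of AP-1, 0 rose, 1 fell and 13 did not pass (median 0.12, -0.03 within set B). The fall was Mapk9, a kinase of the Jun N-terminal family (-0.51, SE 0.12, adjusted p = 0.00748, -0.28 within set B). Map3k1 (0.37), the ERK phosphatase gene Dusp6 (0.24) and Map3k5 (-0.33) did not pass (adjusted p = 0.0537, 0.0737 and 0.0765), and stood at 0.56, 0.17 and -0.07 within set B.

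Of 11 transcription factor genes that drive Fos and Jun, 2 rose and 0 fell (median 0.01, 0.12 within set B). They were Elk4, an SRF partner (0.42, SE 0.12, limma adjusted p = 0.0176, 0.33 within set B), and the cyclic AMP responsive Crem (0.41, SE 0.14, 0.0371, 0.31 within set B). Mrtfa (0.40, -0.08 within set B) and Elk3 (0.32, 0.35 within set B) did not pass. Of 20 textbook AP-1 targets 7 rose, 1 fell and 12 did not pass (median 0.16, 0.38 within set B), where 11.9% of all genes rose and 11.5% fell. Vim rose by 1.23 (SE 0.14), Timp1, an inhibitor of matrix proteases, by 1.72 (SE 0.20), the adhesion receptor gene Cd44 by 1.11 (SE 0.21) and the astrocyte filament gene Gfap by 1.32 (SE 0.27). Their values within set B were 1.27, 1.75, 1.65 and 1.17. The fall, named after its value was seen, was Sprr1a (-0.66, 0.01 within set B). The 4 genes named first also stand in the reactive astrocyte list.

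Marker levels of other cell types were counted in VEH-HI against VEH-Sham, where 11.9% of all genes rose and 11.5% fell. Reactive astrocyte markers rose in 7 of 9 tested genes (median 1.32, 1.27 within set B), and their summed intensity was 4195 to 7969 in EPO-HI, 4335 to 9777 in VEH-HI and 2347 to 2607 in VEH-Sham. Microglia and macrophage markers rose in 7 of 11 and fell in 1 (median 0.58, 0.73 within set B), with sums of 2771 to 3970.5, 3432 to 5129 and 2339 to 2887 in the same order of groups. Neutrophil markers rose in 2 of 6 (median 0.56, 0.71 within set B), with sums of 204 to 971, 192 to 2445 and 166 to 259. Neuron markers fell in 3 of 9 (median -0.24, -0.37 within set B), with sums of 17024 to 18789, 13827 to 18271 and 17171 to 19628. Endothelial markers rose in 2 of 6 and fell in 1 (median 0.23, 0.03 within set B), with sums of 819 to 986, 772 to 1302 and 745 to 892. One of these rises, Pecam1, was 1.40 against all sham samples and 0.01 within set B. Meningeal markers rose in 2 of 6 (median 0.31, 0.37 within set B), with sums of 1339 to 1551, 1394 to 2348 and 1101 to 1411. Astrocyte markers rose in 3 of 6 (median 0.39, 0.12 within set B) and choroid plexus markers in 1 of 4 (0.16, 0.06 within set B). Cerebellum markers rose in 1 of 4 tested genes (median 0.18, -0.02 within set B). The 6 measured cerebellum genes summed to 1003 to 1600 in VEH-Sham 1 to 4, 1831 in VEH-Sham 5 and 1596 to 1765 in VEH-HI. No tested gene of the astrocyte, choroid plexus or cerebellum lists fell. No marker read 0 in any sample. The part of these cells in the AP-1 differences was not tested.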

How the data were processed

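The authors deposited 1 linear intensity per probe set and array, with summary software not given in the sources used here. Each deposited intensity column was scaled to a mean of 150.0 with 2% trimmed at each end. All 15 columns matched a sample and 64 control probe sets were left out. Symbols came from the platform annotation, updated by gene number (34741 matched, 0 changed). Values were used as log2(intensity + 16). The 3 groups entered 1 model in limma 3.58.1 (lmFit, eBayes with trend, R 4.3.3), with two-sided tests and Benjamini-Hochberg adjustment over all tested probe sets at 0.05. Fits were tested on simulated data. Correlations and permutations used Python 3.11.15 and scipy 1.17.1, and figures matplotlib 3.10.9. A gene was represented by its brightest probe set. Up to 4 members of each list with the smallest p in VEH-HI minus VEH-Sham were named, and the 5 genes most correlated with Fos and with Atf3. The AP-1 members and lists were chosen with earlier results of these data known. Arrays were assigned to set A or B by the widest gap in their medians (0.24, log2). Alternatives covered the pseudocount, filter, normalization, trend, samples fitted, array set and each sample left out. The number of arrays limits the precision.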

Additional observations from a re-analysis of the deposited data

Results flagged for a closer look

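Each of the 33 combinations of an AP-1 probe set and a group of 5 samples was searched for a sample far from the others. The measure was the ratio of the gap to that sample's nearest neighbour over the group's range, both on the log2 scale. The signals given below are linear intensities, from which the ratio does not follow directly. The critical value of the ratio was 0.71. Chance gives about 1 such group in 20, and 3 were found. Fosl2 at 1422931_at read 5.28 in VEH-Sham 5, against 53.3 to 92.3 in VEH-Sham 1 to 4 (ratio 0.725). Fosb read 22.3 in EPO-HI 15, against 6.68 to 10.2 in the other EPO-HI samples (0.723). Maff read 5.74 in EPO-HI 13, against 26.5 to 36.8 in the other EPO-HI samples (0.756).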

How the results depend on the processing

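Of the AP-1 genes called higher, VEH-HI minus VEH-Sham had 4 as deposited, 0 with the array set as a block or within set B, 5 with equal medians, and 2 to 4 without 1 sample, with 2 without VEH-HI 6 or 8. EPO-HI minus VEH-Sham had 1, and 0 without the filter, without trend, with the block or within set B. It had 2 with a pseudocount of 1, 3 with quantile normalization or only the groups compared, 4 with equal medians and 0 to 2 without 1 sample. By their brightest probe sets, none of the 6 tested AP-1 genes was called lower under any setting run, and none was called in EPO-HI minus VEH-HI. The second Fosl2 probe set, 1422931_at, passed as lower without VEH-Sham 5 (-0.62 in VEH-HI and -0.67 in EPO-HI, both minus VEH-Sham). Over all probe sets, VEH-HI minus VEH-Sham called 6174, 3 with the block, 7 within set B and 3824 to 9609 without 1 sample. EPO-HI minus VEH-Sham called 4939, 3008 at the brightest 40%, 8603 with equal medians (88.7% higher, against 40.6% as deposited and 53.4% with quantile normalization), 4 with the block, 5 within set B and 2509 to 9047 without 1 sample. EPO-HI minus VEH-HI called 0, and 0 to 4 without 1 sample. The 7 correlated pairs became 4 (without VEH-HI 6) to 8 without 1 sample 3 without the 2 farthest samples, and 9 with group means removed. Jund changed sign with quantile normalization (-0.023 in VEH-HI and -0.055 in EPO-HI, both minus VEH-Sham) and with equal medians in EPO-HI minus VEH-HI (0.016). Without 1 sample Jund ran from -0.0087 to 0.14, -0.12 to 0.046 and -0.066 to 0.083 in VEH-HI minus VEH-Sham, EPO-HI minus VEH-HI and EPO-HI minus VEH-Sham, and Fosl2 from -0.0020 to 0.14 in the last. Fosb in VEH-HI minus VEH-Sham was 0.34 with the block and within set B, 0.10 with quantile normalization and 0.0895 with equal medians. Maff in EPO-HI minus VEH-HI ran from -0.23 to 0.0897 without 1 sample. Within set B the lone VEH-Sham 5 was assumed to vary like the other groups. The causes of these changes between settings were not tested. No paired analysis was possible because replicate numbers run through the whole series.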
